A study of Mus musculus with 4 samples.

Results

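The CCN family and the core target genes of YAP were followed through 4 RNA-seq libraries of mouse embryonic fibroblasts (MEF). The list was set by gene name, with earlier results of these data known: the CCN genes *Ctgf* (newer name *Ccn2*), *Cyr61* (*Ccn1*), *Nov* (*Ccn3*), *Wisp1* (*Ccn4*) and *Wisp2* (*Ccn5*), together with *Ankrd1*, *Amotl2* and *Lats2*. These are 8 of the 20711 protein-coding genes that could be named in the deposited table, and all 8 were found. MEF are fibroblasts grown from the embryo body. These were isolated from C57BL/6 embryos at day E15.5, after the head, limbs, tail and inner organs had been taken off, and immortalized with SV40. The 4 groups were *Hmga2*+/+ Ctrl, *Hmga2*+/+ TGFB1, *Hmga2*-/- Ctrl and *Hmga2*-/- TGFB1, with 1 library each. All cells were starved overnight in medium with 1% FCS. Human recombinant TGFB1 was then given to the TGFB1 groups at 10 ng/ml for 24 h, and the Ctrl groups received water. *Hmga2* encodes a DNA-bending chromatin protein of the embryo. The *Hmga2*-/- cells lack it from the germ line, and both genotypes carry the SV40 immortalization, so the Ctrl libraries are from immortalized cells as well. How many embryos or lines stand behind each genotype is not given in the sources used here.

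CCN proteins are small, cysteine-rich proteins that cells secrete into the matrix, where they bind integrins, heparan sulfate and growth factors. CTGF and CYR61 are widely used as readouts of YAP and TAZ, the transcriptional co-activators at the end of the Hippo pathway. In that pathway the kinases MST1 and MST2 activate LATS1 and LATS2, which phosphorylate YAP and TAZ and keep them out of the nucleus. Unphosphorylated YAP and TAZ enter the nucleus and bind the TEAD factors, which recognize a short core sequence in promoters and enhancers. TGFB1 is the main fibrogenic cytokine of fibroblasts and acts through SMAD factors. CTGF is known as a mediator of matrix production downstream of it. ANKRD1 is a nuclear and sarcomeric ankyrin repeat protein, while AMOTL2 and LATS2 are themselves inhibitors of YAP, so that their induction is regarded as a negative feedback.

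The TEAD core, GGAATG or its complement CATTCC, was searched on both strands in RefSeq promoter windows of 300 bases (250 before to 50 after a start site, GRCm38.p6, which is mm10). Windows were matched for *Cyr61*, *Ankrd1*, *Amotl2* and *Lats2*, and not for *Ctgf*, *Nov*, *Wisp1* and *Wisp2*. All 4 genes with a window held the core. Counted by windows, 4 of their 5 held it, against 14.7% of all 32851 windows. The stretches of 30 bases around each match are shown because they place the core relative to the start site. They are written 5′ to 3′ on the strand of the gene, with the core in capitals.
*Cyr61*, chr3:145650071-145650100, minus strand: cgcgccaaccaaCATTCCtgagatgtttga
*Amotl2*, chr9:102717727-102717756, plus strand: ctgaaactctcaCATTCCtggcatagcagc
*Ankrd1*, chr19:36120037-36120066, minus strand: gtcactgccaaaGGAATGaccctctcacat
*Ankrd1*, chr19:36119950-36119979, minus strand: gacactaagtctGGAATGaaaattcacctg
*Lats2*, chr14:57746102-57746131, minus strand: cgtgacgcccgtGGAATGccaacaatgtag
The first base of the core lay 103 bases before the start site of *Cyr61*, 65 bases before that of *Amotl2*, and 210 and 123 bases before that of *Ankrd1*. In *Lats2* it began at position 5 after the start site, in an exon of 2 of its 9 GENCODE transcripts. The core of *Cyr61* lay in no exon of the gene. That of *Amotl2* lay in an exon of 2 of 14 GENCODE transcripts, which begin upstream of the RefSeq start site, and both cores of *Ankrd1* lay in an exon of 1 of 6. In *Lats2*, which has a second window at a start site inside the gene, the core was in 1 of 2 windows. A match of 6 letters is a description of the sequence and not a measured binding site. The other motifs were counted over the same 5 windows. The SMAD-type CAGA box CAGACA was in 1 of 5 (*Ankrd1*, 137 bases before the start site), against 21.0% of all windows. TATAAA was in 1 of 5 (*Cyr61*, 25 bases before the start site), against 13.6%, and the AP-1 motif TGANTCA in 0 of 5, against 7.81%. No motif overlapped another in these windows.

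Expression is given as RPKM, which scales the reads on a transcript to its length and to the size of the library, so that levels of different genes can be compared. From the steps between low values, each worth 1 read, the libraries were found to hold 56140000 to 57300000 mapped reads per library. With 1 library per condition there is no replicate and no test. Brackets hold 95% intervals for counting error only, and the spread between cultures was not measured. The checks of the labels came first: *Hmga2* itself had 14.8 and 40.7 RPKM in the *Hmga2*+/+ Ctrl and TGFB1 libraries and 0 reads in both *Hmga2*-/- libraries. Of 5 genes chosen as a check of the treatment, 4 were at least 1.5-fold higher with TGFB1 in both genotypes. Over all protein-coding genes tested these shares were 15.7% in *Hmga2*+/+ and 17.4% in *Hmga2*-/- MEF. Among the 4 was *Skil*, a feedback inhibitor of SMAD factors, with 5.94 and 28.4 RPKM in the *Hmga2*+/+ libraries and 5.10 and 29.7 RPKM in the *Hmga2*-/- libraries. The remaining gene, *Col1a1*, was 1.12-fold higher in *Hmga2*+/+ and 1.33-fold higher in *Hmga2*-/- MEF. All 10 fibroblast markers reached 1 RPKM in at least 1 library. None of 8 muscle markers did, and *Myod1*, *Myog*, *Actc1* and *Ckm* were at 0 in all 4 libraries.

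The 5 CCN genes were all transcribed in these cells, at levels that spanned from 1.93 to 359 RPKM. *Ctgf* (ENSMUSG00000019997.11) lies at chr10:24595442-24598682 on the plus strand of mm10. It had 13.2 RPKM in *Hmga2*+/+ Ctrl, 173 RPKM in *Hmga2*+/+ TGFB1, 24.9 RPKM in *Hmga2*-/- Ctrl and 359 RPKM in *Hmga2*-/- TGFB1. Both TGFB1 libraries were thus far above both Ctrl libraries, and within each treatment the *Hmga2*-/- library was the higher one. Ranked by RPKM among the protein-coding genes, *Ctgf* moved from place 3176 to place 91 in *Hmga2*+/+ MEF and from place 1509 to place 31 in *Hmga2*-/- MEF. *Cyr61* (ENSMUSG00000028195.4), at chr3:145646971-145649985 on the minus strand, had 32.5, 103, 61.5 and 207 RPKM in the same order of libraries. Its libraries stood in the same order as those of *Ctgf*. *Wisp1* (ENSMUSG00000005124.10), a CCN gene first described as a target of Wnt signalling, lies at chr15:66891393-66923199 on the plus strand. Its levels were 6.31, 36.4, 6.08 and 54.7 RPKM, so that the Ctrl libraries were close to each other and the TGFB1 libraries apart.

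*Nov* ran the other way. This gene (ENSMUSG00000037362.8), which encodes a CCN protein known to oppose several actions of CTGF, lies at chr15:54745928-54753761 on the plus strand. It had 45.8 RPKM in *Hmga2*+/+ Ctrl, 14.0 RPKM in *Hmga2*+/+ TGFB1, 36.3 RPKM in *Hmga2*-/- Ctrl and 6.66 RPKM in *Hmga2*-/- TGFB1. Both TGFB1 libraries were below both Ctrl libraries, and the *Hmga2*-/- library was the lower one in each treatment. *Wisp2* (ENSMUSG00000027656.7), the CCN protein that lacks the C-terminal domain of the others, lies at chr2:163820834-163833147 on the plus strand. It had 2.54, 1.93, 5.17 and 4.84 RPKM, and so differed more by genotype than by treatment. The sixth CCN gene, *Wisp3* (*Ccn6*), had 3, 0, 2 and 0 reads, at or under the floor of 3 reads, and is not described further.

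The other YAP targets were of unequal abundance. *Ankrd1* (ENSMUSG00000024803.9), at chr19:36111965-36119844 on the minus strand, was scarce, with 0.163, 0.719, 0.364 and 0.975 RPKM from 16, 72, 36 and 97 reads. Both TGFB1 libraries were above both Ctrl libraries, but with so few reads its values are less firm than those of the other genes. *Amotl2* (ENSMUSG00000032531.15), at chr9:102716802-102733417 on the plus strand, had 30.8, 20.4, 39.2 and 33.7 RPKM. Its lowest library was *Hmga2*+/+ TGFB1. *Lats2* (ENSMUSG00000021959.16), at chr14:57689662-57746123 on the minus strand, had 20.6, 21.7, 25.5 and 25.6 RPKM and was the steadiest of the 8 genes. Its libraries differed by genotype more than by treatment.

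**Figure D1:**
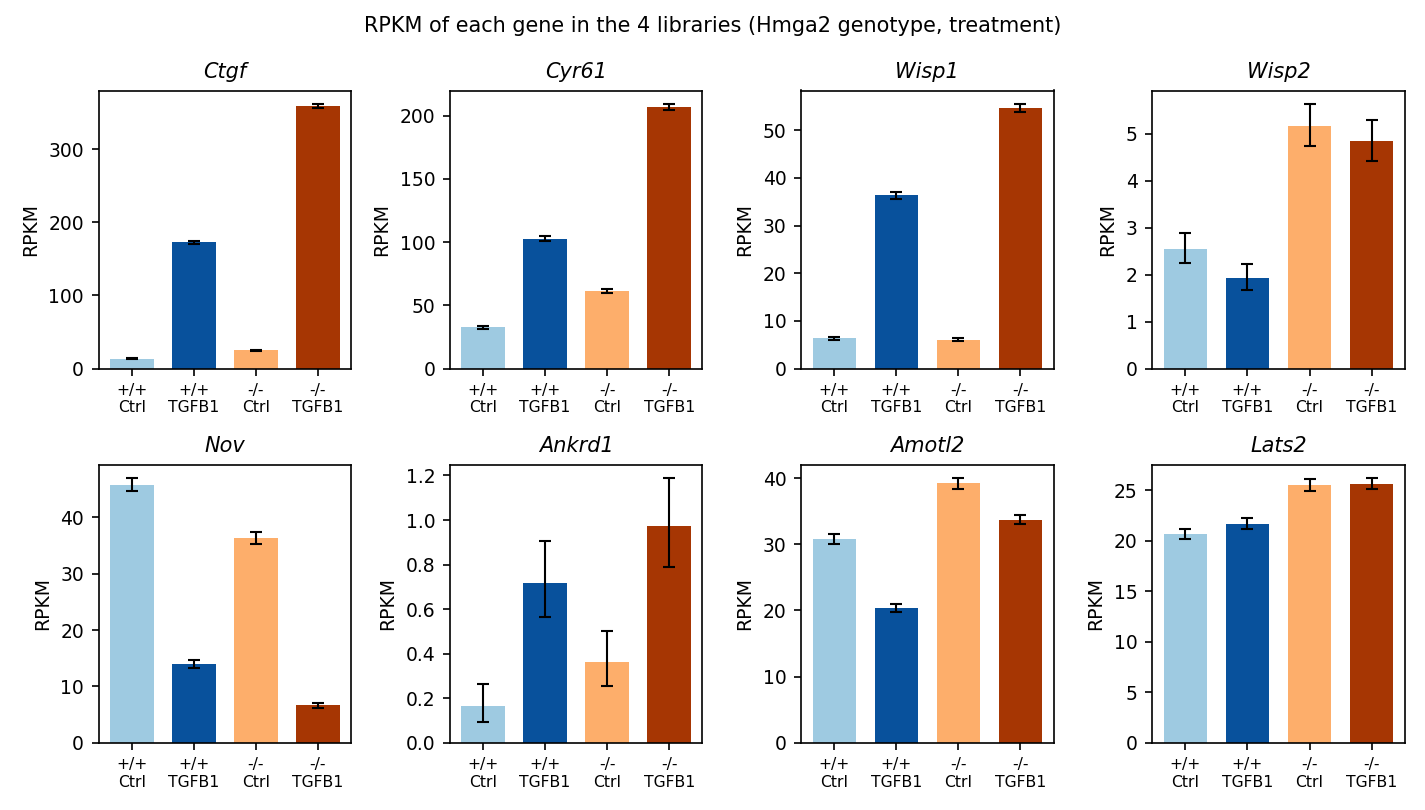
RPKM (linear axis from 0, a scale of its own for each gene) of the 8 genes in the 4 libraries, named by *Hmga2* genotype (+/+ or -/-) and treatment (Ctrl or TGFB1). Bars are single libraries, and error bars are exact 95% Poisson intervals of the reads; *Ctgf*, *Cyr61* and *Wisp1* are highest with TGFB1 in *Hmga2*-/- MEF (359, 207 and 54.7 RPKM), where *Nov* is lowest (6.66 RPKM).

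The order of the levels changed with the treatment. In *Hmga2*+/+ Ctrl it ran from *Nov* over *Cyr61*, *Amotl2*, *Lats2*, *Ctgf*, *Wisp1* and *Wisp2* down to *Ankrd1*, and the intervals of *Cyr61* [31.4 to 33.5 RPKM] and *Amotl2* [30.1 to 31.5 RPKM] overlapped. Without TGFB1 in *Hmga2*-/- MEF, *Cyr61* led before *Amotl2* and *Nov*, and the intervals of *Lats2* [24.9 to 26.1 RPKM] and *Ctgf* [24.1 to 25.8 RPKM] overlapped. With TGFB1, *Ctgf*, *Cyr61* and *Wisp1* were the top 3 of the list in both genotypes and *Nov* was in place 6. *Wisp2* and *Ankrd1* were in the last places of all 4 libraries. All other neighbours in these orders were further apart than their counting intervals.

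The first comparison asked how these genes respond to TGFB1 in *Hmga2*+/+ MEF. *Ctgf*, *Wisp1*, *Ankrd1* and *Cyr61* rose by at least 1.5-fold, the threshold of the study, while *Nov* and *Amotl2* fell by as much. Over all 15308 protein-coding genes above 0 in either library, 15.7% were at least 1.5-fold higher and 25.8% at least 1.5-fold lower. The member counts were thus 4 of 8 higher and 2 of 8 lower. The median log2 change over the 8 genes was 0.87, against -0.09 over all genes tested. *Ctgf* was 13.1-fold higher, a log2 change of 3.71 [3.64 to 3.78], and *Wisp1* 5.76-fold higher, a log2 change of 2.53 [2.45 to 2.60]. *Ankrd1* was 4.41-fold higher on 16 and 72 reads, with a wide interval of 2.54 to 8.12-fold. *Cyr61* was 3.16-fold higher, a log2 change of 1.66 [1.61 to 1.72], which was a smaller change than that of *Ctgf* from a higher starting level. *Nov* was 3.28-fold lower, with a log2 change of -1.71 [-1.79 to -1.64]. *Amotl2* was 1.51-fold lower, and its interval in log2 [-0.65 to -0.54] reached across the threshold of -0.58. With libraries rescaled by the median ratio of expressed genes its log2 change was -0.57, which ends the call. *Wisp2* had a log2 change of -0.40 [-0.68 to -0.12], within 1.5-fold. *Lats2*, at 0.07 [0.02 to 0.12], differed by little.

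The same comparison in *Hmga2*-/- MEF gave 4 of 8 genes higher, against 17.4% of 15381 genes, and 1 of 8 lower, against 24.6%. The median log2 change of the 8 genes was 0.71 and that of all genes -0.03. *Ctgf* was 14.4-fold higher, with a log2 change of 3.85 [3.80 to 3.90], and *Wisp1* rose more than in *Hmga2*+/+ MEF, with 3.17 [3.10 to 3.24]. *Cyr61* was 3.36-fold higher, with 1.75 [1.71 to 1.79]. *Ankrd1* was 2.68-fold higher on 36 and 97 reads [1.81 to 4.04-fold]. *Nov*, the gene that was lower, was 5.45-fold down, with a log2 change of -2.45 [-2.55 to -2.34]. *Amotl2* stayed within 1.5-fold at -0.22 [-0.26 to -0.17], and so did *Wisp2* at -0.09 [-0.28 to 0.09] and *Lats2* at 0.01 [-0.04 to 0.05]. At a pseudocount of 1 RPKM, which compresses low values, the log2 changes of *Ankrd1* were 0.56 in *Hmga2*+/+ and 0.53 in *Hmga2*-/- MEF, under the threshold of 0.58.

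Other cell types were looked for beside these responses, since a bulk sample cannot tell apart fewer cells of a type and less RNA per cell. Summed over 6 chondrocyte markers the level was 3.75 and 2.85 RPKM in the Ctrl libraries and 6.64 and 7.15 RPKM in the TGFB1 libraries, mostly from *Sox9*. *Acan*, a defining gene of cartilage, had 0.0390 and 0.0240 RPKM in Ctrl and 1.15 and 0.609 RPKM with TGFB1, while *Matn1* and *Col9a1* stayed below 0.1 RPKM. The 4 osteoblast markers summed to 4.12 and 4.00 RPKM in Ctrl and 7.29 and 7.13 RPKM with TGFB1. Most of this was *Runx2*, with 4.03 and 3.67 RPKM in Ctrl and 7.25 and 7.12 RPKM with TGFB1. *Bglap* had 0.038 and 0.299 RPKM in Ctrl and 0 with TGFB1, and *Sp7* and *Ibsp* stayed below 0.1 RPKM. For 4 adipocyte markers the sum was 2.46 and 3.07 RPKM in Ctrl and 1.19 and 1.15 RPKM with TGFB1, with *Adipoq* and *Plin1* at 0. The 8 muscle markers summed to 0.020 and 0.083 RPKM in Ctrl and 0.228 and 0.354 RPKM with TGFB1, where nearly all came from *Tnnt2* (0.221 and 0.326 RPKM). Sums over 5 epithelial markers were 0.718 and 0.411 RPKM in Ctrl and 1.04 and 0.830 RPKM with TGFB1, and over 4 leukocyte markers between 1.29 and 1.66 RPKM in all libraries, nearly all from *Cd68*. Of 5 endothelial markers, *Kdr* had 1.11 and 1.46 RPKM in Ctrl and 4.46 and 7.39 RPKM with TGFB1, and *Tek* had 2.75 and 5.65 RPKM in Ctrl and 0.330 and 0.686 RPKM with TGFB1, while *Pecam1*, *Cdh5* and *Emcn* stayed below 0.1 RPKM. The part of these markers in the responses of the 8 genes was not tested.

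**Figure D2:**
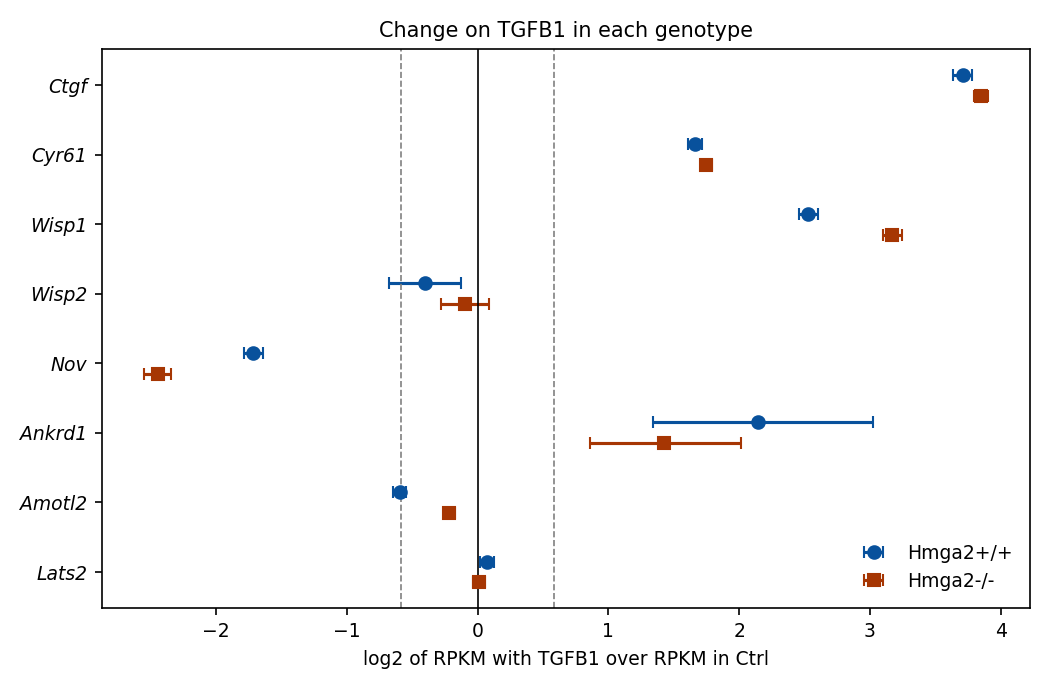
Log2 of the RPKM with TGFB1 over the RPKM in Ctrl (x axis) for each gene (y axis), in *Hmga2*+/+ (circles) and *Hmga2*-/- MEF (squares). Horizontal bars are 95% counting intervals, the solid line marks no change and the dashed lines 1.5-fold; *Ctgf* (3.71 and 3.85) and *Nov* (-1.71 and -2.45) lie at the ends, and *Lats2* lies at 0.07 and 0.01.

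Since all values are per length, the CCN genes can be added up to describe the make-up of CCN RNA. The 5 genes summed to 100.3 RPKM in *Hmga2*+/+ Ctrl, 328 RPKM in *Hmga2*+/+ TGFB1, 134 RPKM in *Hmga2*-/- Ctrl and 632 RPKM in *Hmga2*-/- TGFB1. The sum was 3.27-fold higher with TGFB1 in *Hmga2*+/+ MEF and 4.72-fold higher in *Hmga2*-/- MEF. *Nov* was the largest part in *Hmga2*+/+ Ctrl with 45.6% of the CCN sum, before *Cyr61* with 32.4% and *Ctgf* with 13.2%. With TGFB1 the share of *Nov* in *Hmga2*+/+ MEF was 4.26% and that of *Ctgf* 52.7%. *Cyr61* was the largest part in *Hmga2*-/- Ctrl with 45.9%, *Nov* held 27.1% and *Ctgf* 18.6%. With TGFB1, *Ctgf* held 56.8% and *Nov* 1.05% in the same genotype. The share of *Cyr61* lay between 31.4% and 32.7% in the other 3 libraries. *Wisp1* made up 6.29% and 11.1% in the *Hmga2*+/+ libraries and 4.54% and 8.66% in the *Hmga2*-/- libraries. *Wisp2* held between 0.588% and 3.86%.

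The ratio of *Ctgf* to *Cyr61* depended on the treatment and was nearly the same in both genotypes, with 0.407 and 0.405 in Ctrl and 1.68 and 1.74 with TGFB1. The ratio of *Ctgf* to *Nov* differed between genotypes in both treatments. It was 0.288 in *Hmga2*+/+ Ctrl and 0.686 in *Hmga2*-/- Ctrl, and with TGFB1 it was 12.4 in *Hmga2*+/+ and 53.9 in *Hmga2*-/- MEF. *Nov* RNA thus outnumbered *Ctgf* RNA per length in both Ctrl libraries, and *Ctgf* RNA outnumbered *Nov* RNA in both TGFB1 libraries.

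**Figure D3:**
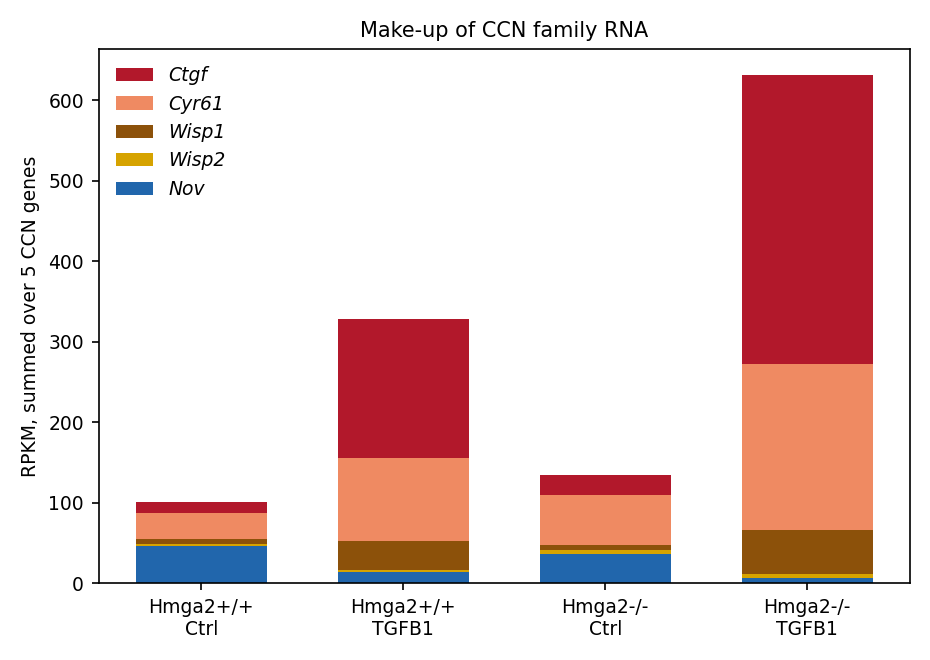
RPKM of the 5 CCN genes stacked for each of the 4 libraries (y axis, linear from 0). The full height is the sum (100.3, 328, 134 and 632 RPKM), and the segments are *Ctgf*, *Cyr61*, *Wisp1*, *Wisp2* and *Nov* from top to bottom; *Nov* shrinks from 45.8 to 14.0 RPKM and from 36.3 to 6.66 RPKM as *Ctgf* grows.

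The next comparison set the genotypes side by side without TGFB1. *Ctgf*, *Cyr61*, *Wisp2* and *Ankrd1* were at least 1.5-fold higher in *Hmga2*-/- Ctrl than in *Hmga2*+/+ Ctrl and no member was as much lower. That is 4 of 8 higher, against 10.3% of 15369 genes, and 0 of 8 lower, against 9.97%. The median log2 difference was 0.63 for the 8 genes and -0.01 for all genes tested. Many of the genes called in this comparison were scarce. Among 10466 genes with at least 1 RPKM in either library, 1.93% were at least 1.5-fold higher and 1.56% lower, and 7 of the 8 genes reached 1 RPKM in at least 1 of the 4 libraries, all but *Ankrd1*. *Ctgf* was 1.89-fold higher, with a log2 difference of 0.92 [0.83 to 1.00]. *Cyr61* was higher by the same factor of 1.89, with 0.92 [0.86 to 0.98], and *Wisp2* was 2.03-fold higher, with 1.02 [0.80 to 1.25]. *Ankrd1* was 2.23-fold higher from 16 against 36 reads [1.21 to 4.31-fold], and the difference was 0.23 at a pseudocount of 1 RPKM. *Amotl2* at 0.35 [0.30 to 0.39] and *Lats2* at 0.31 [0.26 to 0.35] were higher by less than 1.5-fold, with intervals above 0. *Wisp1* differed by -0.05 [-0.15 to 0.04] and *Nov* by -0.33 [-0.39 to -0.28].

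Under TGFB1, 5 of the 8 genes were at least 1.5-fold higher in *Hmga2*-/- than in *Hmga2*+/+ MEF, against 11.6% of 15181 genes, and 1 of 8 was lower, against 9.83%. The medians were 0.66 for the 8 genes and 0.04 for all genes tested. With at least 1 RPKM in either library, 2.86% of 10208 genes were higher and 1.44% lower. *Wisp2* was 2.51-fold higher, with a log2 difference of 1.33 [1.09 to 1.58]. *Ctgf* was 2.08-fold higher, with 1.06 [1.03 to 1.08], and *Cyr61* 2.01-fold higher, with 1.01 [0.98 to 1.04]. *Amotl2* was 1.66-fold higher, with 0.73 [0.68 to 0.78]. *Wisp1*, with 0.59 [0.55 to 0.62], lay at the threshold, and the median-ratio scaling set it to 0.56, without a call. *Nov* was 2.09-fold lower, with -1.07 [-1.18 to -0.95]. *Ankrd1* at 0.44 [-0.02 to 0.90] and *Lats2* at 0.24 [0.19 to 0.29] stayed within 1.5-fold.

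Markers of other cell types also moved with the genotype. The sum over 5 endothelial markers was 3.89 and 4.86 RPKM in the *Hmga2*+/+ libraries and 7.12 and 8.16 RPKM in the *Hmga2*-/- libraries. It came from *Kdr* and *Tek*, 2 of the 5. The epithelial sum was lower in *Hmga2*-/- than in *Hmga2*+/+ MEF in both treatments (0.411 against 0.718 RPKM in Ctrl, 0.830 against 1.04 RPKM with TGFB1). With TGFB1 only *Epcam* was lower (0.284 against 0.667 RPKM). *Cdh1* (0.18 against 0.091 RPKM), *Krt18* (0.317 against 0.252 RPKM) and *Krt8* (0.049 against 0.029 RPKM) were higher there. The muscle sum was higher in both treatments (0.083 against 0.020 RPKM, 0.354 against 0.228 RPKM), mostly from *Des* and *Tnnt2* in Ctrl and from *Tnnt2* with TGFB1. No marker of either list reached 1 RPKM. The muscle sums in Ctrl lay near the floor of 3 reads, 0.053 RPKM for 1000 bases. Of the adipocyte markers, *Pparg* was higher in *Hmga2*-/- MEF in both treatments, with 1.15 against 0.489 RPKM in Ctrl and 0.233 against 0.0910 RPKM with TGFB1. *Fabp4* was lower in both, with 1.92 against 1.97 RPKM and 0.914 against 1.10 RPKM, while *Adipoq* and *Plin1* were at 0. The 10 fibroblast markers summed to 1951 and 1959 RPKM in *Hmga2*+/+ and to 2354 and 2192 RPKM in *Hmga2*-/- MEF. The sum followed *Vim*, with 958 against 1497 RPKM in Ctrl, whereas *Col1a1*, *Col1a2*, *Col3a1*, *Pdgfrb*, *Thy1* and *Lum* were lower in *Hmga2*-/- Ctrl. The part of these markers in the genotype differences was not tested.

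**Figure D4:**
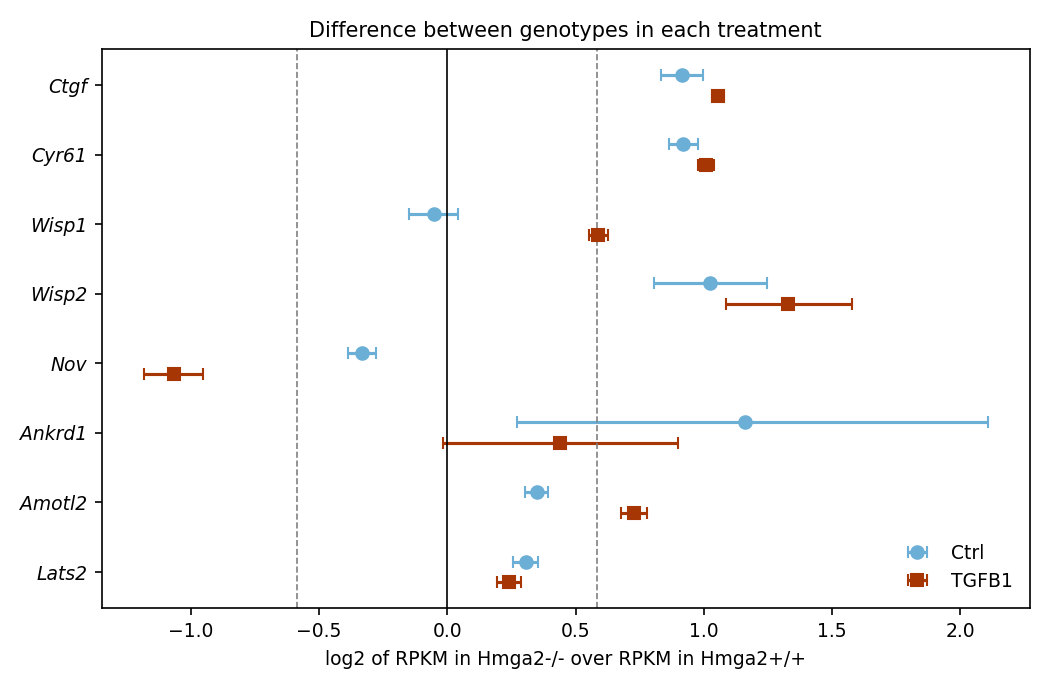
Log2 of the RPKM in *Hmga2*-/- over the RPKM in *Hmga2*+/+ MEF (x axis) for each gene (y axis), in Ctrl (circles) and with TGFB1 (squares). Horizontal bars are 95% counting intervals and dashed lines mark 1.5-fold; *Ctgf*, *Cyr61* and *Wisp2* lie above 0.9 in both treatments, and *Nov* lies at -0.33 and -1.07.

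Whether the response to TGFB1 itself differed between genotypes was described as the log2 response in *Hmga2*-/- minus that in *Hmga2*+/+ MEF. With 4 libraries this difference has a counting interval and no test. Of the 8 genes, 1 had a response at least 1.5-fold higher in *Hmga2*-/- MEF, against 12.6% of 15869 genes, and 2 had one at least 1.5-fold lower, against 11.6%. Where only the 10679 genes that reached 1 RPKM were counted, these shares were 2.08% and 1.5%. The medians were 0.11 for the 8 genes and 0.04 for all genes. *Wisp1* was the gene with the higher response, by 0.64 [0.54 to 0.74]. *Nov* fell further in *Hmga2*-/- MEF, by a difference of -0.73 [-0.86 to -0.61]. *Ankrd1* had a difference of -0.72, but its interval [-1.68 to 0.24] included 0. The differences of *Ctgf*, 0.14 [0.05 to 0.23], and of *Cyr61*, 0.09 [0.02 to 0.15], were small beside their genotype differences of 0.92 in Ctrl. *Amotl2* differed by 0.38 [0.31 to 0.45], *Wisp2* by 0.31 [-0.02 to 0.63] and *Lats2* by -0.06 [-0.13 to 0.00].

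Where a gene had several annotated transcripts, these were compared with each other. *Ctgf*, *Cyr61*, *Nov*, *Wisp2* and *Ankrd1* had 1 transcript each in the table, *Wisp1* had 3, *Amotl2* had 4 and *Lats2* had 6. Reads on shared exons count for each transcript, so the transcripts of a gene are not independent. The log2 response of the *Wisp1* transcripts ran from 2.34 to 2.53 in *Hmga2*+/+ and from 3.04 to 3.17 in *Hmga2*-/- MEF, although the shortest of them had only 296 bases. The *Amotl2* transcripts ran from -0.61 to -0.58 and from -0.23 to -0.22. *Lats2* was the gene whose transcripts parted. Its 2 short transcripts, of 901 and 1046 bases, start at an internal site at 57734418 and end within the gene at 57722189. They had log2 responses of 0.41 and 0.42 in *Hmga2*+/+ MEF, while the transcript of 3863 bases, which spans 57696716 to 57700579, had -0.20. In *Hmga2*-/- MEF the same transcripts had 0.15, 0.15 and 0.05. All of these stayed within 1.5-fold.

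The genes with the most similar profile were found for each member as the smallest Euclidean distance between log2 RPKM over the 4 libraries, after each gene was centred on its mean, among 12074 genes with at least 10 reads in every library. With 4 points per profile, close neighbours arise easily, and nothing is implied about function or control. Nearest to *Ctgf* was *Pdgfb*, a PDGF ligand, with 0.0610, 0.900, 0.127 and 1.82 RPKM and a distance of 0.13, and *Aldh1a3* was also close (0.32). *Cyr61* was closest to *Fhdc1* (0.11), *Tbc1d2* (0.14) and *Gdnf* (0.16). The genes closest to *Wisp1* were the monocarboxylate transporter gene *Slc16a3* (0.18), the latent TGFB binding protein gene *Ltbp2* (0.20) and *Slc20a1* (0.24), and those closest to *Nov* were *Pou6f1* (0.12), *Gbp6* (0.16) and *Dnah1* (0.17). For *Wisp2* they were *Msrb3* (0.27), the IGF binding protein gene *Igfbp3* (0.34) and *Pnma2* (0.35). *Ankrd1* had *Serpina3n* (0.03), *Alkal1* (0.25) and *Gcnt2* (0.26) at its side, *Amotl2* had *Ada*, *Eno4* and *Slc35d2* (0.10 each), and *Lats2* had *Upf3b* (0.03), *Ndufs4* (0.04) and *Whamm* (0.04). Within the list, *Cyr61* and *Ankrd1* were nearest to each other (0.44), as were *Amotl2* and *Lats2* (0.56) and *Ctgf* and *Wisp1* (1.20). *Nov* was the most remote, at 2.16 from its nearest member *Amotl2*.

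The pathway around these genes was described next with 18 genes of the Hippo kinase cascade and its regulators. None was at least 1.5-fold higher with TGFB1 in *Hmga2*+/+ MEF, against 15.7% of all genes, and 2 were lower, against 25.8%, namely the MST2 kinase gene *Stk3* and the scaffold gene *Dlg5*. With median-ratio scaling 1 of 18 was higher. Their log2 changes were -0.66 and -0.62, and the median of the list was 0.18, against -0.09 for all genes. In *Hmga2*-/- MEF 1 of 18 was higher, *Wwc2* at 0.69, against 17.4% of all genes, and 3 were lower, against 24.6%, namely *Stk3* at -0.65, *Dlg5* at -0.60 and the angiomotin gene *Amot* at -0.80. The median was -0.01, against -0.03 for all genes. Between genotypes 0 of 18 were at least 1.5-fold higher or lower in either treatment. Over all genes tested, 10.3% were higher and 9.97% lower in Ctrl, and 11.6% and 9.83% under TGFB1. Among genes with at least 1 RPKM in either library, these shares were 1.93% and 1.56% in Ctrl, and 2.86% and 1.44% under TGFB1. All genes of the cascade list reached that level, so 0 of 18 was near this background. *Lats1*, the paralog of *Lats2*, had 14.0, 20.6, 13.9 and 19.1 RPKM and log2 responses of 0.56 and 0.46. Its level differed more by treatment than by genotype, whereas that of *Lats2* did the reverse, all within 1.5-fold.

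Of 8 effectors and partners, 2 were at least 1.5-fold lower with TGFB1 in *Hmga2*+/+ MEF (*Tead2* at -0.63 and the TEAD-binding repressor gene *Vgll4* at -0.88) and 1 in *Hmga2*-/- MEF (*Vgll4* at -0.66). The shares of all genes lower were 25.8% and 24.6%, so that the count in *Hmga2*+/+ MEF was at the background. With TGFB1, 0 of 8 were as much higher in either genotype, against 15.7% and 17.4% of all genes. Between genotypes 0 of 8 differed by 1.5-fold in either treatment. Among genes with at least 1 RPKM in either library, 1.93% were higher and 1.56% lower in Ctrl, and 2.86% and 1.44% under TGFB1. With 8 genes, 0 was near this background. *Tead4*, at 0.58, lay at the threshold in *Hmga2*+/+ MEF, and the median-ratio scaling moved 1 of the 8 past it. *Yap1*, which encodes YAP, had 19.2, 15.2, 17.8 and 15.5 RPKM. *Wwtr1*, which encodes TAZ, had 26.2, 34.9, 29.0 and 34.2 RPKM and was thus above *Yap1* in every library. Of the TEAD genes, *Tead1* was the most abundant, with 20.1, 28.3, 25.4 and 26.1 RPKM. *Tead2* had 17.5, 11.3, 14.6 and 11.1 RPKM, while *Tead3* lay between 4.13 and 5.81 RPKM and *Tead4* between 1.86 and 3.16 RPKM. RNA levels do not measure the phosphorylation or the location of YAP and TAZ.

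Other genes known as YAP and TAZ targets in other cells were 20 in number. With TGFB1, 9 of 20 were at least 1.5-fold higher and 2 lower in *Hmga2*+/+ MEF, against 15.7% and 25.8% of all genes. The median was 0.47, against -0.09 for all genes. In *Hmga2*-/- MEF 10 were higher and 1 lower, against 17.4% and 24.6%, with a median of 0.57, against -0.03. The largest changes were those of the EGF-family ligand gene *Areg* (0.222, 4.54, 0.147 and 2.80 RPKM, log2 4.35 and 4.25), the stress-response gene *Gadd45a* (12.3, 79.2, 14.2 and 76.9 RPKM, log2 2.68 and 2.44) and the endothelin gene *Edn1* (0.376, 1.61, 0.547 and 4.05 RPKM, log2 2.09 and 2.89). *Tgfb2* was lower in both genotypes, at -1.25 and -1.02, and *Arhgef17* in *Hmga2*+/+ MEF at -0.68. Several of these genes are also targets of other pathways that TGFB1 activates, so the list does not single out YAP.

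Between the genotypes, 3 of 20 targets were at least 1.5-fold higher in *Hmga2*-/- Ctrl and 2 lower, against 10.3% and 9.97% of all genes. Among genes with at least 1 RPKM in either library these shares were 1.93% and 1.56%. With that filter 3 targets were still higher. The higher ones were *Igfbp3* (4.59 against 10.0 RPKM, log2 1.13), the matrix protein gene *Ccdc80* (0.63) and the AMPK-related kinase gene *Nuak2* (0.62). The lower ones were *Nt5e* and *Areg*, both under 1 RPKM in these libraries. The call of *Areg* rested on 15 against 10 reads, with an interval in log2 [-1.91 to 0.65] that included 0. With a pseudocount of 1 or 0.1 or the filter at 1 RPKM 0 of 20 were lower in this comparison, and with median-ratio scaling 1 was. Under TGFB1, 5 were higher, against 11.6% of all genes, and 1, *Areg*, lower, against 9.83%. The higher ones were *Edn1* (1.33), *Igfbp3* (0.88), *Ccdc80* (0.78), the tissue factor gene *F3* (0.75) and *Nuak2* (0.69). In the difference of responses 1 of 20 was at least 1.5-fold higher, against 12.6% of all genes, and 0 lower, against 11.6%. Among genes that reached 1 RPKM these shares were 2.08% and 1.5%. The higher one was *Edn1* at 0.79, with 45 and 66 reads in the Ctrl libraries. Its interval [0.20 to 1.39] reached below the threshold of 0.58. *F3*, *Arhgef17*, *Tgfb2* and *Nt5e*, and *Nuak2* under TGFB1, were chosen after their values were seen, to name every gene behind a small count.

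**Figure D5:**
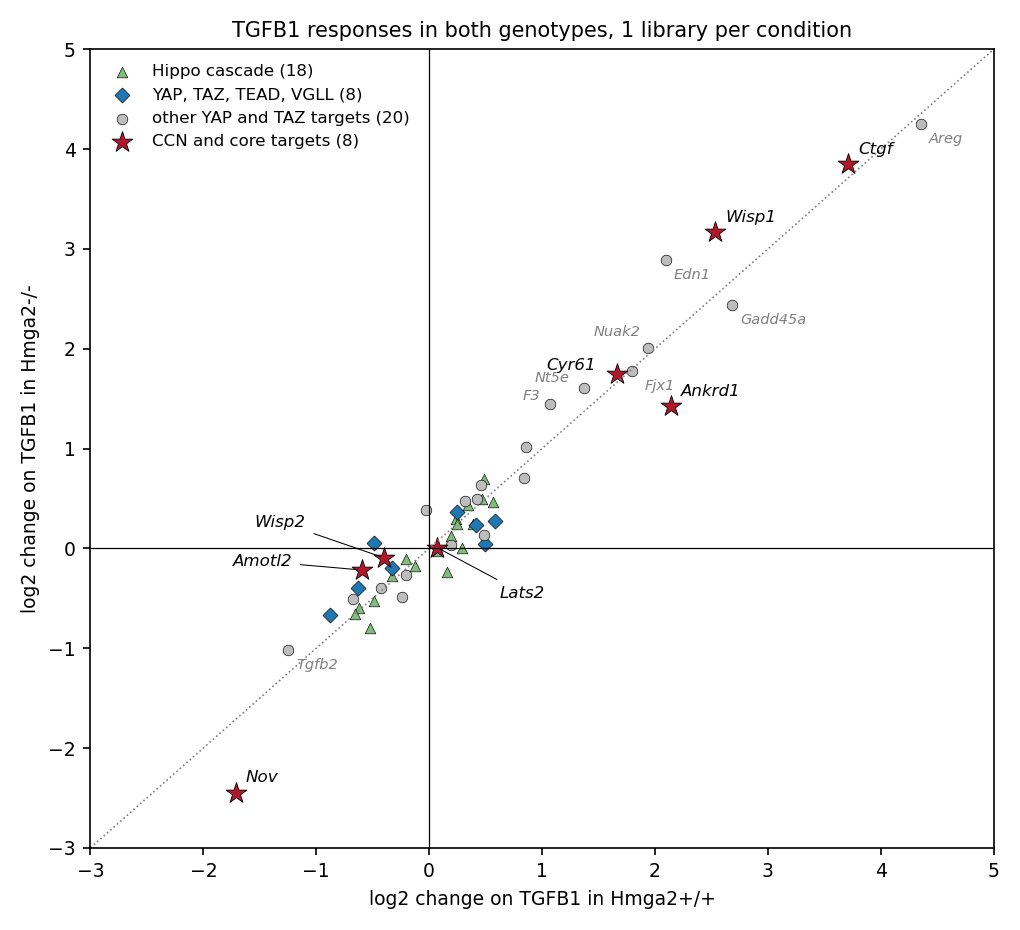
Log2 change on TGFB1 in *Hmga2*+/+ (x axis) and in *Hmga2*-/- MEF (y axis) for the 8 CCN and core target genes (stars), 18 Hippo cascade genes (triangles), 8 effectors (diamonds) and 20 other targets (circles). The dotted line marks equal responses; cascade and effector genes lie between -0.88 and 0.69, *Ctgf*, *Wisp1*, *Cyr61* and *Ankrd1* lie at the upper right with *Areg*, *Gadd45a* and *Edn1*, and *Nov* lies lowest at the lower left, below *Tgfb2* (-1.25 and -1.02).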

How the data were processed

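RNA-seq of total RNA was analysed for 4 libraries of MEF, 1 for each combination of *Hmga2* genotype and treatment. After trimming (Trimmomatic) and mapping to mm10 (HISAT2 2.1.0), the authors counted strand-specific reads over UCSC known genes in HOMER and deposited RPKM with 3 decimals for 63759 transcripts, with the length of each transcript in bases. The header of the table names exons as the counted feature and the methods name genes. The methods speak of duplicates of 1 experiment, while the table has 1 column per condition, and whether duplicates were pooled is not given in the sources used here. The number of columns of per-sample values left unused was 0.

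A transcript took the name of the same-strand GENCODE vM21 gene that covered at least 50% of it; 57708 (90.5%) were named. Each gene is reported by the transcript with the longest gene body. The mapped reads of a library were taken as the total that turned low RPKM of short transcripts (under 600 bases) into whole read numbers. Of the 1338 to 1366 values tested per library, 100% lay within 0.1 of a whole read. The floor of 3 reads for a transcript of 1000 bases was 0.0524 to 0.0534 RPKM. Since the deposited values are RPKM without replicates, no count test was run and no p-value is given.

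As in the methods, 0 RPKM was set to 0.001 and a change was called at 1.5-fold (0.58 in log2). The background was 1 transcript per protein-coding gene above 0 RPKM in at least 1 library compared. Intervals of ratios were exact binomial (Clopper-Pearson) intervals of the derived reads, those of levels exact Poisson intervals, and those of differences of responses normal approximations. All cover counting error only, and reads without molecular identifiers are not independent molecules. The members and all lists were chosen with earlier results of these data known. Named were all 8 members, up to 3 genes of each other list with the largest change in a comparison among those with at least 1 RPKM, the defining genes of the pathway and the 3 nearest profiles of each member. Some genes that meet this rule are not reported here. Promoter windows came from RefSeq (GRCm38.p6).

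The alternatives changed the value added to low RPKM, the scaling of libraries, the transcript per gene, the filter on low values and the fold threshold. Steps were tested on simulated data. Python 3.11.15, numpy 2.4.6, pandas 2.3.3, scipy 1.17.1 and matplotlib 3.10.9 were used.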

Additional observations from a re-analysis of the deposited data

How the results depend on the processing

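No paired analysis was possible because each condition has a single library, and for the same reason no library could be left out. Under 5 alternatives that give a value for each gene, 184 of 195 changes of the 8 genes moved by less than their counting interval and 11 moved further. Of the changes called at 1.5-fold, 0 reversed in sign. Changes within 1.5-fold were not counted as reversals. The response of *Lats2* in *Hmga2*-/- MEF, for example, was 0.01 and became -0.02 with median-ratio scaling. Of those 11, 10 came from a pseudocount of 1 RPKM and 1 from the median-ratio scaling (*Ctgf* between genotypes under TGFB1, 1.02). The filter at 1 RPKM leaves the values themselves as they are, so its 35 changes could not move. The choice of transcript could move only *Wisp1*, *Amotl2* and *Lats2*, the genes with several transcripts. In *Hmga2*+/+ MEF the number of members lower with TGFB1 was 1 in place of 2 with a pseudocount of 1, with median-ratio scaling and at a threshold of 2-fold. At 2-fold, 2 members were higher in *Hmga2*-/- Ctrl (*Wisp2*, and *Ankrd1* on 16 against 36 reads), against 1104 of 15369 genes. Under TGFB1, 3 were higher in *Hmga2*-/- MEF at 2-fold, against 1171 of 15181 genes. At this threshold 0 members had a higher and 0 a lower response, against 1501 and 1386 of 15869 genes. At 1.5-fold, the number of members with a lower response was 1 with a pseudocount of 1 or of 0.1 and with the filter at 1 RPKM.

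Counts over all genes depended on how low values were treated. With a pseudocount of 1, genes higher and lower were 969 and 1192 in place of 2399 and 3950 for the response in *Hmga2*+/+ MEF, 1124 and 1083 in place of 2676 and 3781 in *Hmga2*-/- MEF, 106 and 67 in place of 1586 and 1533 between genotypes in Ctrl, 159 and 68 in place of 1767 and 1492 under TGFB1, and 62 and 54 in place of 2004 and 1837 for the difference of responses. With a pseudocount of 0.1 they were 1494 and 2539, 1711 and 2339, 429 and 392, 535 and 371, and 586 and 413. With the filter they were 1195 and 1743, 1384 and 1535, 202 and 163, 292 and 147, and 222 and 160. At 2-fold the responses had 1468 and 2510 in *Hmga2*+/+ and 1643 and 2505 in *Hmga2*-/- MEF, and the genotypes 1171 and 1047 under TGFB1. In the genotype comparison under TGFB1, 54.2% of called genes were higher, against 70.0% with a pseudocount of 1, 66.5% with the filter and 51.6% with median-ratio scaling. In Ctrl this share was 50.8%, against 61.3% with a pseudocount of 1.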
